A study of Homo sapiens with 16 samples.

Results

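Long noncoding RNAs (lncRNAs) that were higher in mesenchymal stem cells (MSCs) after mitomycin C (MmC) were described across 16 RNA sequencing libraries. MmC alkylates and cross-links DNA, and senescent cells were obtained with it. A gene was taken as a member when GENCODE gives it the gene type lncRNA, its mean over the 8 MmC+ libraries was at least 0.5 CPM (the count divided by the total of its library and scaled by 1000000), and that mean was at least 4 times the mean over the 8 MmC- libraries. NEAT1, MALAT1, MIR34AHG, PURPL, LINC-PINT, GAS5, MEG3 and H19 were left out by the rule. The rule gave 84 genes of 16780 lncRNA genes and of 60649 genes in the table. The members were thus chosen by their measured MmC difference, which is given below as a description without a test.

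The cells were ASC52telo, an adipose-derived MSC line immortalized with telomerase, so 1 line stood for all replicates. The 4 groups had 4 biological replicates each. Cells of all 4 groups were collected after 10 days, which in the MmC+ groups followed the MmC exposure. MmC-/GDF11- cells received neither agent, MmC-/GDF11+ cells received growth differentiation factor 11 (GDF11, a cytokine of the TGF-beta family) at 10 ng/mL for 10 days, MmC+/GDF11- cells had been exposed to MmC at 1.5 µg/mL for 18 h, and MmC+/GDF11+ cells had MmC and then GDF11 over the 10 days. MmC- cells are called young and MmC+ cells senescent, as in the study.

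LncRNAs are transcripts with no known protein product, many of them spliced and polyadenylated. Some act on the gene beside them, some carry microRNA hairpins, some bind proteins, and for most no function has been shown. Senescent cells leave the cell cycle under p53 and p21 and secrete cytokines and chemokines under NF-kappaB and C/EBP beta, and lncRNAs induced by p53 or by inflammatory signals are known among the transcripts of both programmes.

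Total counts lay between 71275337 and 144204979 per library. The surface proteins that define MSCs were expressed in every library, with a summed level of NT5E, THY1, ENG, CD44 and ITGB1 of 4693 to 5587 CPM in MmC- and 5516 to 5909 CPM in MmC+ libraries. Markers of other cells were low: the summed level of 6 blood cell genes was 1.66 to 2.82 CPM in MmC- and 2.76 to 5.08 CPM in MmC+ libraries, with HLA-DRA at 0 in all 16 libraries. Of 3 endothelial genes PECAM1 made up most (5.11 to 7.33 against 5.12 to 20 CPM) while CDH5 lay between 1.9 and 2.95 against 0.753 and 0.916 CPM. Adipocyte genes summed to 1.15 to 2.47 CPM in MmC- and 0.427 to 1.33 CPM in MmC+ libraries, and epithelial genes to 0.625 to 1.14 and 0.525 to 0.900 CPM. Mitochondrial genes took 1.58% to 3.11% of counts in MmC- and 3.55% to 4.73% in MmC+ libraries, and lncRNA genes 0.644% to 0.728% and 0.715% to 0.843%. The part of other cells, or of these shares, in the members' values was not tested. Fewer transcripts per cell and fewer expressing cells cannot be told apart in bulk RNA.

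Replicate 1 stood apart from replicates 2 to 4 in both MmC+ groups. The summed level of the 84 lncRNAs was 152 CPM in MmC+/GDF11- replicate 1 and 150 CPM in MmC+/GDF11+ replicate 1, against 243 to 289 CPM in the other 6 MmC+ libraries and 23.0 to 30 CPM in the 8 MmC- libraries. All MmC+ libraries lay above all MmC- libraries in this sum, a separation that the choice of members by the same contrast favoured. Without replicate 1 of every group, an alternative chosen after seeing the data, the rule gave 102 genes, and it gave 95 when only replicate 1 of MmC+/GDF11-, or only that of MmC+/GDF11+, was left out.

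The sequences before the start sites of 4 members are shown first because they hold motifs of factors of the stress and inflammatory response, and because these members are described below. They were taken from RefSeq on GRCh38.p14, 250 bases before to 50 bases after the annotated start, 5′ to 3′ on the strand of the gene. LUCAT1 (chr5:91314353-91314652, minus strand) holds 1 AP-1 motif. DLGAP1-AS2 (chr18:3603487-3603786, plus strand) holds a pair of AP-1 motifs and a C/EBP motif. MIR3142HG (chr5:160468001-160468300, plus strand) holds an NF-kappaB consensus. The GENCODE genes of MIR3142HG and DLGAP1-AS2 begin at 160438594 and 3603000, so their windows at RefSeq starts lie inside the gene bodies. LINC02393 (chr12:127881367-127881666, plus strand) holds an NF-kappaB consensus and an AP-1 motif. Capitals mark AP-1 (TGANTCA), C/EBP (TTGCNNAA) and NF-kappaB consensus matches, searched on both strands.
LUCAT1: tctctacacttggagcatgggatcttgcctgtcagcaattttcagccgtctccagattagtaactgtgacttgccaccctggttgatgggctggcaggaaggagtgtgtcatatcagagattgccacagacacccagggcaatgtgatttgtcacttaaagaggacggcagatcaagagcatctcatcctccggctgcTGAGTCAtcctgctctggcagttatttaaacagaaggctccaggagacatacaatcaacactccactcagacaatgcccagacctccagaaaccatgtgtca
DLGAP1-AS2: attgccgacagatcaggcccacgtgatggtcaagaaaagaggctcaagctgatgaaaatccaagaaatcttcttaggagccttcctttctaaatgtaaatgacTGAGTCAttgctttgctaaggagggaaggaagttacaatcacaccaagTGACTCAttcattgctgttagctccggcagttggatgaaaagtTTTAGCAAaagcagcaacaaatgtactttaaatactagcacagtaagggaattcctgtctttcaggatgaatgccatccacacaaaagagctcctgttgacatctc
MIR3142HG: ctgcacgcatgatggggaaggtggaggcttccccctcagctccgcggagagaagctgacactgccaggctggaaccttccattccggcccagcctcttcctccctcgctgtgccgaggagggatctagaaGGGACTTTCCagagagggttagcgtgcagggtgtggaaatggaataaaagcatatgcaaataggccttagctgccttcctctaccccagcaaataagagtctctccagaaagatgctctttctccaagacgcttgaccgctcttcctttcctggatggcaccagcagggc
LINC02393: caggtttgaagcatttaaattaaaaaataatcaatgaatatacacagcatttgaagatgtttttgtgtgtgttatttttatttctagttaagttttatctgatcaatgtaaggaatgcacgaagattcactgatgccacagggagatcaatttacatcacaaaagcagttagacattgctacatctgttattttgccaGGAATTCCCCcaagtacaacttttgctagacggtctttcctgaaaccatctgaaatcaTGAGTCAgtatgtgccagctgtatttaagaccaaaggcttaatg

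Of the 84 lncRNAs, 35 matched a promoter by symbol. The AP-1 motif was in 7 of the 35 (20%), against 7.71% of all 35116 promoters of this length and 8.24% of the 1468 promoters of tested lncRNAs. The 7 were LUCAT1, THBS1-IT1, DLGAP1-AS2, UNC5B-AS1, LINC02725, LINC02889 and LINC02393. The NF-kappaB consensus was in 5 of 35 (14.3%, against 11.3% and 12.7%), the TATA box (TATAAA) in 6 (17.1%, against 11.5% and 9.33%), the C/EBP motif in 1 (2.86%, against 10.5% and 7.97%) and the p53 half-site consensus in 1 (2.86%, against 6.63% and 7.15%). No 2 of these motifs overlapped in the 4 sequences printed. A match is a description of the letters and not a binding site.

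MIR3142HG is a host gene whose last exon carries the hairpin of miR-146a, a microRNA induced by NF-kappaB that represses the signalling proteins IRAK1 and TRAF6. The gene also spans the hairpin of miR-3142. MIR3659HG spans the hairpin of miR-3659. The mature sequences are shown because they are the known products of these transcripts, with the seed (bases 2 to 8) in capitals. No 2 of these 4 seeds were the same. The mature microRNAs were not measured by poly(A) RNA sequencing.
hsa-miR-146a-5p: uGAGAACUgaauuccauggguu
hsa-miR-146a-3p: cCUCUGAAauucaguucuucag
hsa-miR-3142: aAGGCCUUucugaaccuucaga
hsa-miR-3659: uGAGUGUUgucuacgagggca

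The members were mostly weakly expressed transcripts. In the MmC+ libraries 40 of 84 had a mean under 1 CPM, 32 lay between 1 and 5 CPM and 12 at 5 CPM or more, with a median of 1.02 CPM against 0.127 CPM in MmC- libraries. The median ratio of the means was 9.33, and the ratio was at least 10 for 39 members and at least 20 for 21. A symbol was given for 53 members, and 31 are known by their identifier alone. They lay on 23 chromosomes. By the reverse rule (at least 0.5 CPM in MmC- and 4 times lower in MmC+) 17 lncRNAs would have been found, and 1428 lncRNAs reached 0.5 CPM in MmC+ libraries.

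**Figure D1:**
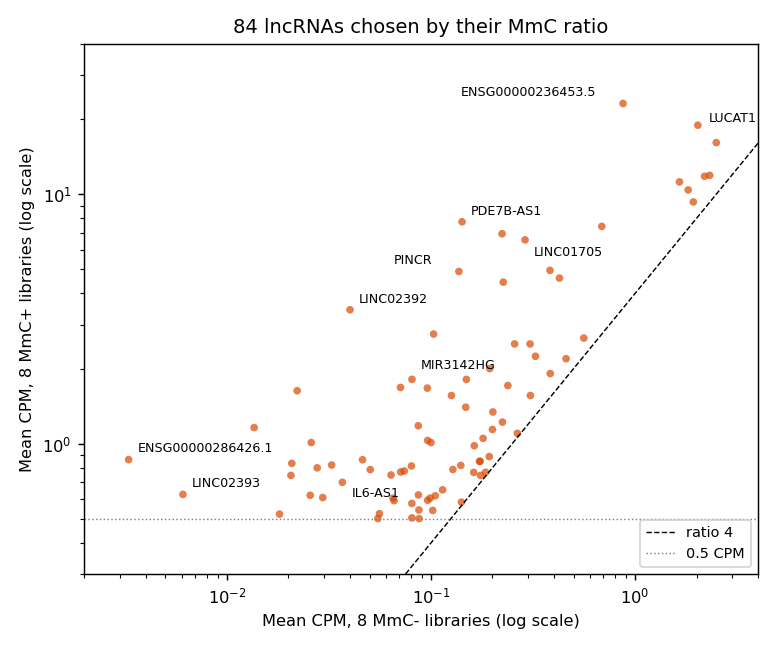
Mean CPM of each of the 84 lncRNAs over the 8 MmC- libraries (x axis) and the 8 MmC+ libraries (y axis), both on log scales, with the thresholds of the rule as lines (ratio 4, dashed; 0.5 CPM, dotted). The median member lay at 0.127 CPM in MmC- and 1.02 CPM in MmC+ libraries, and ENSG00000236453.5 had the highest MmC+ mean at 23.1 CPM.

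Just inside the ratio threshold were ENSG00000287875.1 (4.13), ENSG00000224945.1 (4.15) and SCAT8 (4.15), and just outside were ATP2B1-AS1 (3.93), GDNF-AS1 (3.90) and LINC01134 (3.89). Just inside the level threshold were LINC01397 and ENSG00000286147.1 (both 0.501 CPM) and FAM87A (0.504 CPM), and just outside were ENSG00000286048.1 (0.4996 CPM), ENSG00000286748.1 (0.492 CPM) and TM4SF1-AS1 (0.488 CPM). The genes on both sides of a threshold thus differed little.

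In 71 of the 84 members all 8 MmC+ libraries lay above all 8 MmC- libraries, against 12.0% of the 19103 genes tested. In the fit of edgeR over all genes the log2 fold change had a median of 3.13 without and 3.25 with GDF11, where the median of all genes was -0.01 in both and that of lncRNAs 0.13 and 0.18. All 84 passed the filter on low counts. Among the 3404 lncRNAs tested 23.3% were higher and 12.8% lower without GDF11, and 24.4% higher and 11.8% lower with GDF11 (adjusted p under 0.05, edgeR quasi-likelihood). Nothing is read from the members' values, since the same contrast chose them.

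The transcript with the highest level was ENSG00000236453.5 (chromosome 7, 94022833 to 94066661, hg38), 18451 bases from BET1, for which no function is stated here. In MmC+/GDF11-, replicates 1 to 4 had 5.21, 26.3, 30.3 and 30.2 CPM, and in MmC+/GDF11+ they had 5.33, 28.9, 30.4 and 28.5 CPM. In MmC-/GDF11- it was at 0.412, 0.773, 0.918 and 1.21 CPM and in MmC-/GDF11+ at 0.673, 0.930, 0.727 and 1.34 CPM. The groups did not overlap, and replicate 1 was the lowest in all 4 groups. The ratio of the means was 26.5, and per kilobase of exon the MmC+ mean was 21.8 CPM.

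LUCAT1 (chromosome 5, 91054834 to 91314547), a stress-inducible RNA that restrains interferon and inflammatory gene expression in immune cells, came next. It was at 6.01, 21.2, 23.9 and 24.9 CPM in MmC+/GDF11- and at 6.90, 21.8, 22.9 and 23.4 CPM in MmC+/GDF11+, against 0.940 to 2.55 CPM in MmC-/GDF11- and 1.23 to 2.76 CPM in MmC-/GDF11+. All MmC+ libraries were above all MmC- libraries, with replicate 1 the lowest of each group. Its log2 fold change was 3.22 without and 3.21 with GDF11. Its exons, merged over 65 annotated transcripts, span 16558 bases. Per kilobase of these its MmC+ level was 1.14 CPM, below that of THBS1-IT1 (22 CPM per kilobase), ENSG00000236453.5 or DIRC1 (7.16 CPM per kilobase). THBS1-IT1 and DIRC1 have 1 annotated transcript each, so this order depends on the annotation. The length of the LUCAT1 transcripts expressed here was not measured.

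THBS1-IT1 is a single-exon transcript annotated inside THBS1, the thrombospondin 1 gene, on the same strand. It was at 22.7, 14.7, 13.5 and 13.8 CPM in MmC+/GDF11- and 23.7, 14.4, 13.2 and 12.9 CPM in MmC+/GDF11+. In MmC-/GDF11- it was at 4.64, 1.31, 1.76 and 2.08 CPM and in MmC-/GDF11+ at 5.39, 1.75, 1.38 and 1.71 CPM. Replicate 1 was the highest in every group, unlike for ENSG00000236453.5 and LUCAT1. THBS1 itself was also highest in replicate 1 of each group (8341 and 7951 CPM in the MmC+ groups, 3863 and 4120 CPM in the MmC- groups). Reads from an unspliced THBS1 RNA and from THBS1-IT1 cannot be told apart in these counts.

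The other members among the 10 with the highest MmC+ mean were INKA2-AS1 (11.9 CPM, ratio 5.14), LINC01483 (11.8 CPM, 5.40), FAM87B (11.2 CPM, 6.80), LINC02957 (10.4 CPM, 5.71), DLGAP1-AS2 (9.31 CPM, 4.81), PDE7B-AS1 (7.75 CPM, 54.4) and DIRC1 (7.43 CPM, 10.8). FAM87B was at 2.40 and 2.39 CPM in the MmC+ libraries of replicate 1 and at 13.1 to 14.9 CPM in the other 6, against 1.02 to 2.69 CPM in MmC- libraries, so its replicate 1 fell within the range of the MmC- libraries. PDE7B-AS1, antisense to the cyclic AMP phosphodiesterase gene PDE7B, was at 1.89, 7.49, 8.99 and 12.6 CPM in MmC+/GDF11- and 2.05, 8.06, 9.01 and 11.9 CPM in MmC+/GDF11+, and at 0.0773 to 0.213 CPM in MmC- libraries. It had both a high level and a high ratio, with no overlap between the groups. DIRC1, a transcript named for a chromosome break in renal cancer, was at 4.46 to 9.19 CPM in MmC+/GDF11- and 5.91 to 9.83 CPM in MmC+/GDF11+, with replicate 1 the highest of each group, against 0.412 to 0.953 CPM in MmC- libraries.

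**Figure D2:**
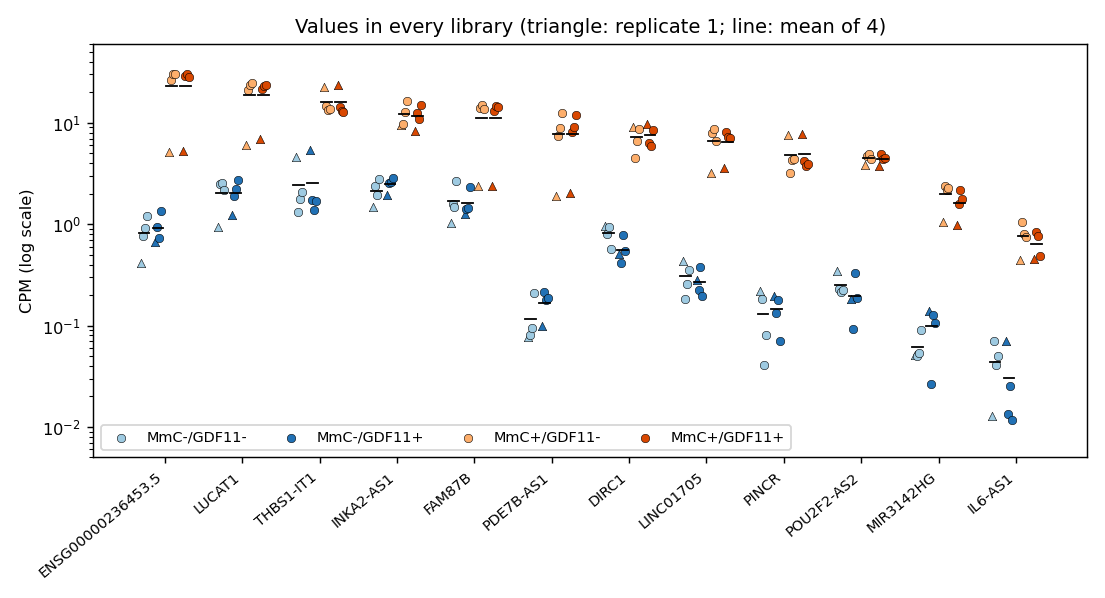
CPM (log scale) of 12 named lncRNAs in every library, with 1 colour for each group, a triangle for replicate 1, circles for replicates 2 to 4 and a line at the mean of the 4. For ENSG00000236453.5, LUCAT1, FAM87B and PDE7B-AS1 the MmC+ triangles lie under the circles, and for THBS1-IT1 and PINCR above them.

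The highest ratios belonged to transcripts that were close to absent in young MSCs. ENSG00000286426.1 (chromosome 18, 27785821 to 27795637) had 2 counts in the 8 MmC- libraries together and 684 in the MmC+ libraries, a ratio of pooled counts of 290 (95% counting interval 80.1 to 2402). LINC02393 had 4 counts against 505 (107, interval 41.6 to 395). Such intervals and floors cover counting error only. In MmC-/GDF11+ both were at 0 in all 4 libraries, and against a floor of 3 counts over that group they were at least 86.7-fold and 58.7-fold higher in MmC+/GDF11+.

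The ratio of these genes moved most, and upward, when 1 MmC- library was left out. Whichever 1 library was left out, it stayed at 229 or more for ENSG00000286426.1 and at 89.9 or more for LINC02393. ENSG00000286426.1 had a ratio of means of 262, which became 469 without MmC-/GDF11- replicate 3, and LINC02393 had 103, which became 435 without MmC-/GDF11- replicate 1. LINC02393 was at 0.0557 and 0.0126 CPM in the MmC+ libraries of replicate 1 and at 0.525 to 1.12 CPM in the other 6. The MmC- libraries ran from 0 to 0.0386 CPM, so the groups overlapped at replicate 1 of MmC+/GDF11+. FNDC1-AS1 was the only other member whose ratio moved by more than 1.5 times without 1 library, from 5.88 to 9.27 without MmC-/GDF11- replicate 1. In all, 12 members had an MmC- library at 0, and a count of 0 allowed a level of up to 0.0208 to 0.0421 CPM, depending on the library.

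LINC02392 (ratio 85.7), ENSG00000232949.2 (85.0), ENSG00000269729.1 (73.9), LINC02051 (40) and ENSG00000253194.2 (39) followed. LINC02392 was at 1.47 to 5.79 CPM in the 8 MmC+ libraries and at 0 to 0.0702 CPM in the MmC- libraries. ENSG00000253194.2 was at 2.50 and 2.55 CPM in the MmC+ libraries of replicate 1 but at 0.240 to 0.735 CPM in the others, against 0 to 0.0405 CPM in MmC- libraries. Its MmC+ level was thus set mainly by replicate 1, while LINC02051 (0.645 to 1.09 CPM over the 8 MmC+ libraries) varied little.

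Of the 84, LUCAT1, LINC01705, MIR3142HG and IL6-AS1 were in the list of lncRNAs linked to inflammation, PINCR in that of lncRNAs linked to senescence, and MIR3142HG also in that of microRNA host genes. PINCR, a p53-induced RNA of the X chromosome that favours the transcription of arrest genes, was at 7.52, 3.22, 4.29 and 4.42 CPM in MmC+/GDF11- and 7.84, 4.24, 3.74 and 3.89 CPM in MmC+/GDF11+. In the 8 MmC- libraries it was at 0.0405 to 0.219 CPM. Its groups did not overlap, and replicate 1 was the highest of each MmC+ group. CDKN1A, which encodes p21 and is a p53 target, was likewise highest in replicate 1 of these groups (1860 and 1845 CPM against 1065 to 1488 CPM). In the MmC- groups replicate 1 was also the highest for CDKN1A (327 and 378 CPM against 174 to 205 CPM). The same held there for PINCR (0.219 and 0.196 CPM against 0.0405 to 0.181 CPM), so this order was not particular to MmC+ libraries.

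MIR3142HG was at 1.05, 2.41, 2.2 and 2.27 CPM in MmC+/GDF11- and 0.993, 1.58, 2.19 and 1.77 CPM in MmC+/GDF11+. In MmC-/GDF11- it was at 0.0502 to 0.0907 CPM and in MmC-/GDF11+ at 0.0266 to 0.140 CPM, so the groups did not overlap. Its log2 fold change was 4.97 without and 4.04 with GDF11. LINC01705 was at 3.23, 8.01, 8.66 and 6.66 CPM in MmC+/GDF11- and 3.57, 8.07, 7.19 and 7.11 CPM in MmC+/GDF11+, against 0.181 to 0.438 CPM in MmC- libraries.

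IL6-AS1 (chromosome 7, 22725395 to 22727620) overlaps exons of IL6, which encodes interleukin 6, on the opposite strand. It was at 0.445, 1.05, 0.805 and 0.753 CPM in MmC+/GDF11- and 0.453, 0.837, 0.770 and 0.481 CPM in MmC+/GDF11+, against 0.0117 to 0.0702 CPM in MmC- libraries. IL6 was at 133, 900, 853 and 770 CPM in MmC+/GDF11- and 123, 761, 926 and 679 CPM in MmC+/GDF11+, and at 2.59 to 6.79 CPM in MmC- libraries. Both were lowest in replicate 1 of the MmC+ groups. The strand setting of the counting is not given in the sources used here, so reads of IL6 and of its antisense partner cannot be told apart. IL6-AS1 also overlaps an exon of the protein-coding gene STEAP1B on the same strand, where a strand setting would not separate the reads. STEAP1B had means of 2.55 and 5.52 CPM in MmC-/GDF11- and MmC+/GDF11-.

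Members that lay within 500 kb of each other formed 6 pairs of 12 genes. ENSG00000232949.2 was 122.9 kb from IL6-AS1, LINC01705 was 32.3 kb from LINC02257 (ratios 22.7 and 24.2), POU2F2-AS1 was 15.2 kb from POU2F2-AS2 (10.8 and 19.6), and LINC02015 was 31.5 kb from ENSG00000225790.2 (10.3 and 15.6). TARID and LINC01312 overlapped on opposite strands beside TCF21 (12.4 and 36.1), and FNDC1-AS1 was 416.9 kb from ENSG00000237927.1. TARID, an antisense RNA known for activating TCF21 by demethylation of its promoter, was at 0.213 and 0.239 CPM in the MmC+ libraries of replicate 1 and at 1.35 to 2.70 CPM in the others, against 0.0540 to 0.224 CPM in MmC- libraries. LINC01312 was at 0.102 and 0.0754 CPM in replicate 1 and at 0.614 to 1.60 CPM in the others. Both were thus low in the same pair of libraries, where TARID overlapped the MmC- range.

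The genes beside the members were tested next, since the rule did not use them. The nearest protein-coding gene within 100 kb was taken; 61 members had one, which gave 59 genes, of which 56 were tested. Without GDF11 39 of the 56 (69.6%) were higher after MmC and 8 lower, against 24.1% of protein-coding genes that were higher and 25.4% that were lower. With GDF11 38 (67.9%) were higher and 8 lower, against 24.4% and 26.4%. Their median log2 fold change was 1.35 without and 1.25 with GDF11, and that of all protein-coding genes -0.02 in both. The other 3 were not tested: SYK and ENSG00000283321 were below the filter, and SOD2, a mitochondrial antioxidant enzyme gene 79900 bases from ENSG00000237927.1, was not analysed here. ENSG00000237927.1 was at 0.465 to 0.835 CPM in MmC+ and 0.0399 to 0.155 CPM in MmC- libraries.

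Among the neighbours that rose were CXCL5, C3, NOD2 and POU2F2. CXCL5, a neutrophil chemokine that overlaps ENSG00000287037.1, was at 6.70 to 14.6 CPM in the MmC- libraries and at 276 to 1977 CPM in the MmC+ libraries. Its log2 fold change was 7.14 (SE 0.653) without GDF11 (adjusted p = 1.03e-06, edgeR) and 7.27 (SE 0.657) with GDF11 (1.01e-06, edgeR), and the groups did not overlap. ENSG00000287037.1 itself was at 0.186, 1.04, 0.793 and 0.646 CPM in MmC+/GDF11- and 0.163, 0.643, 0.832 and 0.557 CPM in MmC+/GDF11+, against 0 to 0.0816 CPM in MmC- libraries. C3, the central complement protein and host of the single-exon ENSG00000276980.1 on the same strand, was at 74.9 to 329 CPM in MmC- and 1355 to 2273 CPM in MmC+ libraries, with a log2 fold change of 3.42 (SE 0.436) without GDF11. NOD2, a sensor of bacterial cell walls overlapping CYLD-AS1, went from 0.142 to 0.270 CPM to 0.993 to 2.97 CPM (3.61, SE 0.336).

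POU2F2, a transcription factor best known in B cells that overlaps both POU2F2-AS1 and POU2F2-AS2, was at 9.30 to 16.0 CPM in MmC- and 104 to 171 CPM in MmC+ libraries. Its log2 fold change was 3.50 (SE 0.206, adjusted p = 9.65e-09, edgeR) without GDF11. POU2F2-AS1 was at 3.33 to 5.61 CPM in MmC+ and 0.270 to 0.510 CPM in MmC- libraries, and POU2F2-AS2 at 3.76 to 4.98 CPM and 0.0930 to 0.348 CPM. C1QTNF1, a secreted protein of the C1q family that overlaps C1QTNF1-AS1, had a log2 fold change of 3.59 (SE 0.163) without and 3.58 (SE 0.163) with GDF11. IGFL2, 2595 bases from ENSG00000269729.1, had 5.01 (SE 0.909) at a low level (0.0649 to 0.351 CPM in MmC+/GDF11-). DLGAP1 (3.28, SE 0.296), beside DLGAP1-AS2, THBS1 (1.51, SE 0.404) and ACER2 (3.02, SE 0.299), an alkaline ceramidase gene beside ENSG00000260912.1, also rose without GDF11.

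Other members rose beside a gene that fell. PTTG1, which encodes securin, the inhibitor of sister chromatid separation, lies 9855 bases from MIR3142HG and was at 36.8 to 80.9 CPM in MmC- and 10.2 to 32.1 CPM in MmC+ libraries (-1.43, SE 0.335, without GDF11; adjusted p = 0.00284, edgeR). MAP2K6, a kinase upstream of p38, lies 23386 bases from LINC01483 and had -1.17 (SE 0.338) without GDF11 (adjusted p = 0.00986, edgeR). Another 5 that fell were KTN1, SLC8A1, VRK2, FBXO25 and TMEM65, with log2 fold changes between -0.88 and -0.57. The remaining 9 neighbours did not pass the test without GDF11, among them HMGA2 (0.32, SE 0.339) and PTGER3 (-0.15, SE 0.390).

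**Figure D3:**
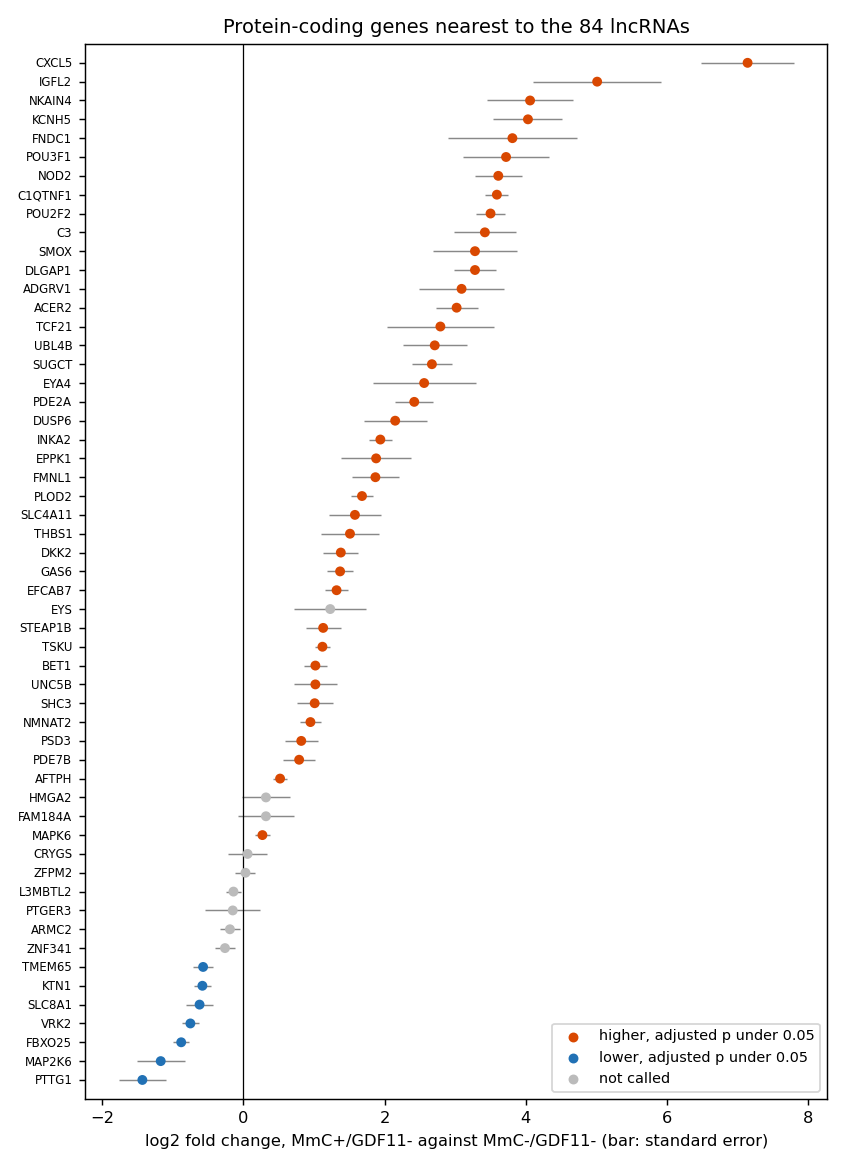
Log2 fold change of 55 of the 56 tested neighbouring protein-coding genes for MmC+/GDF11- against MmC-/GDF11- (x axis), with its standard error as a bar. Orange marks the 39 that were higher and blue the 7 shown that were lower at an adjusted p under 0.05, gray those not called; CXCL5 lies farthest right at 7.14 and PTTG1 farthest left at -1.43.

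A lncRNA and its neighbour can share reads where they overlap. Of the 84, 36 overlapped the gene body of the neighbour, 30 on the opposite and 6 on the same strand, and 25 had an exon over an exon of another gene, 23 on the opposite and 5 on the same strand. In the 23 tested neighbours with no such overlap of gene bodies, 16 (69.6%) were higher in both comparisons, and in the 33 that overlapped 23 (69.7%) without and 22 (66.7%) with GDF11. These shares lay close together, and the part of shared reads in them was not tested.

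Lists of related lncRNAs, written from general knowledge, are given whole, so their counts include the members among them, which were chosen by this contrast. Of 22 tested lncRNAs of the microRNA host list, 2 (9.09%) were higher and 7 (31.8%) lower without GDF11, and 2 and 10 (45.5%) with GDF11, beside 23.3% higher and 12.8% lower of all tested lncRNAs without and 24.4% and 11.8% with GDF11. The list median was -0.37 without GDF11, against 0.13 over all lncRNAs. MIR3142HG was the only member in this list, which does not hold MIR3659HG. MIR99AHG (-1.62, SE 0.154) and MIR503HG (-1.64, SE 0.213) fell without GDF11.

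MIR155HG, host of another microRNA of inflammation, had -0.90 without (SE 0.359, adjusted p = 0.0504, edgeR) and -0.95 with GDF11 (SE 0.359, adjusted p = 0.0394, edgeR), so that it passed only with GDF11 in this fit. With the replicate number as a block it also passed without GDF11 (-0.98, adjusted p = 6.61e-04, edgeR), as it did with DESeq2 (adjusted p = 0.0299) and limma-voom (adjusted p = 0.0302). With GDF11 it did not pass without any 1 of 6 libraries (MmC-/GDF11+ replicates 2 to 4 and MmC+/GDF11+ replicates 1 to 3; adjusted p from 0.0637 to 0.0989, edgeR).

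Of 19 tested inflammation-linked lncRNAs, 4 of them members, 9 (47.4%) were higher and 1 (5.26%) lower without GDF11, and 8 (42.1%) and 2 (10.5%) with GDF11. The direction of the 4 members was fixed by the rule. Of the 15 that were not members, 5 were higher and 1 lower without GDF11, and 4 and 2 with GDF11. WAKMAR2, a lncRNA of keratinocyte inflammation (2.00, SE 0.201), and PACERR, antisense to the start of the cyclooxygenase 2 gene (1.64, SE 0.491), rose without GDF11 and are not members. PACERR did not pass without MmC+/GDF11- replicate 4 (1.03, adjusted p = 0.0732, edgeR). Of 23 senescence-linked lncRNAs, 1 of them the member PINCR, 8 (34.8%) were higher and 4 (17.4%) lower without GDF11, and 8 and 6 (26.1%) with GDF11. Of 26 snoRNA host genes, none a member, 5 (19.2%) were higher and 4 (15.4%) lower without GDF11, and 6 (23.1%) and 5 (19.2%) with GDF11, shares near those of all lncRNAs in the higher direction. The medians of these 3 lists without GDF11 were 0.30, 0.11 and 0.14. With the members left out, which takes away the largest MmC ratios, 34 of 80 list lncRNAs were called without and 38 with GDF11 in either direction.

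For context, 56 of 68 secretory and NF-kappaB genes (82.4%) were higher and 2 lower without GDF11 (57 and 1 with GDF11), and 23 of 30 p53 target genes (76.7%) were higher and 1 lower in both comparisons, beside 22.9% of all tested genes that were higher without and 23.4% with GDF11.

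The spread among the MmC+ libraries had 1 main pattern. Replicate 1 was the lowest of the 4 in MmC+/GDF11- for 60 of 84 members (71.4%, against 47.8% of all tested genes) and in MmC+/GDF11+ for 57 (67.9%, against 49.5%). It was lowest in both for 56 (66.7%, against 39.7%), highest in both for 16 (19%, against 18.3%), and neither for 12. The median level of replicate 1 over the mean of the others was 0.467 in MmC+/GDF11- and 0.492 in MmC+/GDF11+. In MmC-/GDF11- and MmC-/GDF11+ replicate 1 was lowest for 27 and 23 members (32.1% and 27.4%, against 34.9% and 29.7% of all tested genes). It was highest there for 32 and 31 members (38.1% and 36.9%, against 27.4% and 25.5%). The pattern of low values was thus not seen in the MmC- groups to the same extent, and that difference was not tested.

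The 16 that were highest in replicate 1 of both MmC+ groups included THBS1-IT1, DIRC1, PINCR, POU2F2-AS1, FLJ16779, ENSG00000253194.2, MIR3659HG, C1QTNF1-AS1 and ENSG00000276980.1. Those with the largest spread were LINC02393, LINC00161 and LINC01312, all lowest in replicate 1. LINC00161 was at 0.158 and 0.138 CPM in the MmC+ libraries of replicate 1, at 1.68 to 2.97 CPM in the other 6, and at 0.0386 to 0.420 CPM in the MmC- libraries. CXCL8, the gene of interleukin 8, was at 926 and 941 CPM in replicate 1 and at 3101 to 5228 CPM in the others, and in MmC- libraries at 13.1 to 25.8 CPM. The study names batch effects among its limitations without tying them, in the sources used here, to a replicate number, and what sets replicate 1 apart was not tested.

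**Figure D4:**
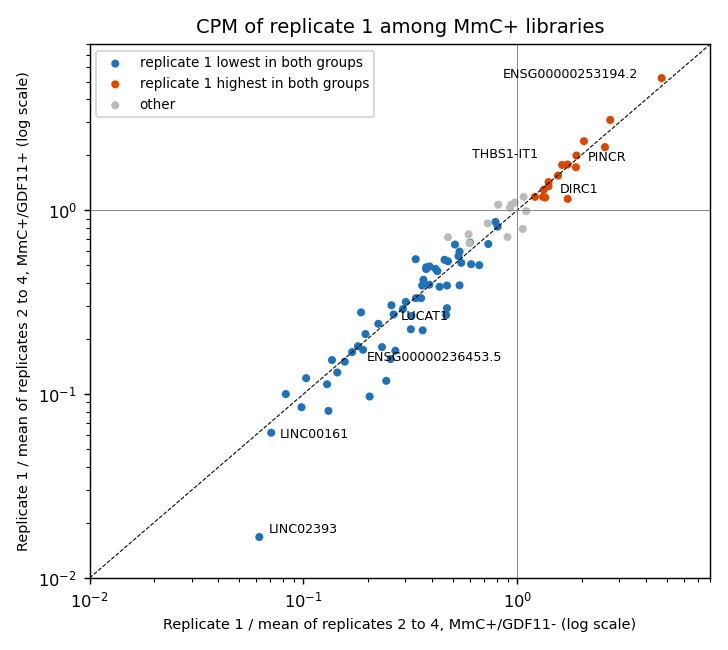
CPM of replicate 1 divided by the mean of replicates 2 to 4 in MmC+/GDF11- (x axis) and MmC+/GDF11+ (y axis) for each of the 84 lncRNAs, on log scales, with the line of equality dashed. Blue marks the 56 that were lowest and orange the 16 that were highest in replicate 1 of both groups; the points lie along the line, with medians of 0.467 and 0.492.

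GDF11 was not part of the rule and was tested over all genes. No member was called for GDF11 in young MSCs, in senescent MSCs or for the interaction of MmC and GDF11 (edgeR quasi-likelihood, all adjusted p 1.00). Of all 19103 genes 0% were called in each of the 3 tests. At an unadjusted p under 0.05 there were 2 members in young MSCs (2.38%, against 1.18% of all genes), 0 in senescent MSCs (0.503% of all) and 1 for the interaction (1.19%, against 0.900%). DESeq2 and limma-voom also called 0 members in each test, with 1, 0 and 1 members (DESeq2) and 2, 0 and 2 members (limma-voom) at an unadjusted p under 0.05. With the replicate number as a block in edgeR, 0 members were called in young MSCs or for the interaction. At an unadjusted p under 0.05 there were then 4 and 3 members. The share of all genes is not given for these, so nothing is read from the 2 counts.

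In senescent MSCs, where the members were expressed, the log2 fold changes with GDF11 lay between -0.33 and 0.23, with a median of -0.03; 32 were above and 52 below 0, and none was beyond 2-fold. Their standard errors had a median of 0.376. With the replicate number as a block, since same-numbered libraries deviated together here, the median standard error was 0.239 and the log2 fold changes lay between -0.35 and 0.26, with 0 members called and 0 at an unadjusted p under 0.05 (0.759% of all genes). None of these changes was called in either fit. With the block the standard errors ran from 0.111 to 0.541, so the size of change that could be detected differed between members. MIR3142HG (-0.27, SE 0.285), ENSG00000287929.1 (-0.31, SE 0.306) and LINC01164 (-0.24, SE 0.265) had the lowest unadjusted p, and with the block SCAT8 did (-0.35, SE 0.214).

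These values moved by over 1.5 times when 1 library was left out. MIR3142HG was at -0.11 without MmC+/GDF11+ replicate 1 and -0.46 without MmC+/GDF11- replicate 1, ENSG00000287929.1 at -0.03 without MmC+/GDF11- replicate 2 and -0.52 without MmC+/GDF11- replicate 4, and LINC01164 at -0.15 without MmC+/GDF11+ replicate 4 and -0.37 without MmC+/GDF11+ replicate 3. ENSG00000287929.1 was at 0.984, 1.95, 1.41 and 0.705 CPM in MmC+/GDF11- and 0.893, 1.41, 1.10 and 0.656 CPM in MmC+/GDF11+. Each of the 4 replicates was lower with GDF11, and the value with the block was -0.29 (SE 0.222).

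In young MSCs the members were at low levels, with a median of 0.127 CPM, and 12 of the 84 had a library at 0. Leaving aside ENSG00000286426.1 and LINC02393, which had no counts in MmC-/GDF11+ and whose fitted values depend on the prior count, the log2 fold changes lay between -1.10 and 1.12, with 4 beyond 2-fold. The lowest p belonged to ENSG00000276980.1 (-1.05, SE 0.464), ENSG00000251095.7 (-1.10, SE 0.367) and ENSG00000287255.1 (-0.75, SE 0.360). The value of ENSG00000276980.1 rested on MmC-/GDF11- replicate 1 (0.438 CPM, against 0.0540 to 0.161 CPM in the other replicates of that group) and was -0.37 without it. ENSG00000251095.7 was at 0.0515, 0.0401, 0.0945 and 0.0705 CPM in MmC-/GDF11- and 0.0140, 0.0266, 0.0255 and 0.0466 CPM in MmC-/GDF11+, and these ranges overlapped. For the interaction the lowest p was that of LINC01164 (-1.36, SE 0.608), which was at 0 to 0.0403 CPM in MmC-/GDF11- and 0.0255 to 0.0665 CPM in MmC-/GDF11+ but at 0.765 to 0.986 and 0.629 to 0.978 CPM in the MmC+ groups. None of these passed the adjustment.

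**Figure D5:**
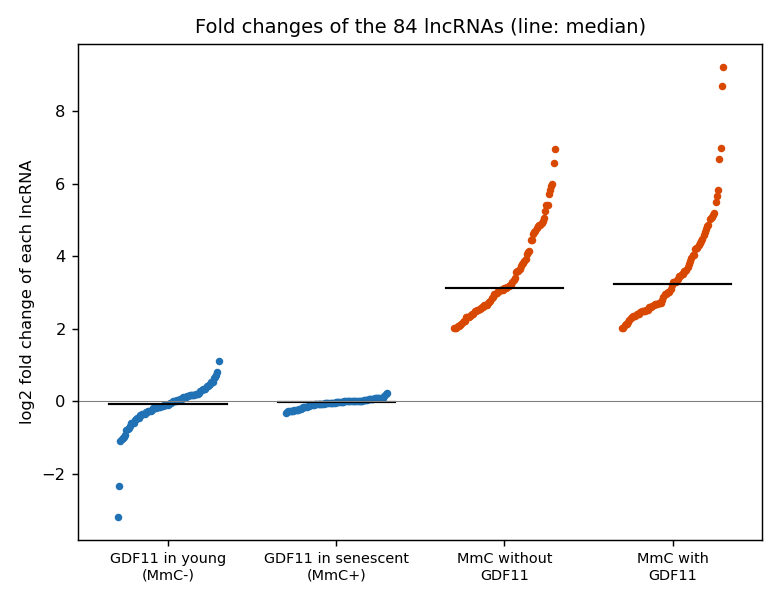
Log2 fold change (y axis) of each of the 84 lncRNAs for GDF11 in young and in senescent MSCs (blue) and for MmC without and with GDF11 (orange, the contrasts that chose the members), sorted within each column, with the median as a line. The medians are -0.08 and -0.03 for GDF11 and 3.13 and 3.25 for MmC; the lowest pair in young MSCs and the highest pair for MmC with GDF11 are ENSG00000286426.1 and LINC02393, which had no counts in MmC-/GDF11+.

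The members differed little from other lncRNAs in length and base composition. Their longest transcript had a median of 1817 bases against 1790 bases in the other 3320 tested lncRNAs, with a GC content of 44.8% against 46.8%. They had a median of 4 exons against 3, and 8 of 84 (9.52%) had a single exon, against 24.2% of the others. Their gene bodies had a median length of 18949 bases against 7873 bases. Their median level over all libraries was 0.566 CPM against 0.333 CPM, and whether the level bears on these differences was not tested.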

How the data were processed

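The authors sequenced poly(A) RNA of 16 libraries with a directional kit, aligned reads to hg38 with HISAT2 2.2.1, counted them with featureCounts 2.0.1 on GENCODE V38 and deposited raw counts per gene; strand, pair and multimapping settings are not given in the sources used here. From these counts CPM were computed with the library total as divisor. Counts were tested in R 4.3.3 with edgeR 4.0.16 (filterByExpr with minimum count 10 and minimum total 15, TMM, robust quasi-likelihood, 1 mean per group over 16 libraries), with Benjamini-Hochberg adjustment over 19103 genes at 0.05. DESeq2 1.42.0 and limma-voom 3.58.1 were alternatives, as were other scalings, filters and each library left out. Steps were tested on simulated data. Total counts of 71275337 to 144204979 limit precision mainly for genes near 0. The replicates are biological per the paper's methods, from 1 cell line.

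Gene types and positions came from GENCODE v44; 186 identifiers had no match, of which 2 met both thresholds and were not typed here. Members, lists and tests were chosen with earlier results of these data known. Named members are the 10 highest by MmC+ mean, the 8 highest ratios, list members, members beside a list gene, those next to the thresholds, the lowest p for GDF11 and the interaction, and the 3 of largest spread; other genes named were chosen after their values were seen. Of the tested neighbours 1 is counted but its values are not reported here.

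Same-numbered libraries deviated together from their group means across genes, and the lowest correlation of a pair was 0.448 for GDF11 in senescent MSCs, 0.113 for MmC without GDF11, 0.0982 for GDF11 in young MSCs and 0.0293 for MmC with GDF11. For GDF11 in young MSCs the pairs of replicates 1, 2 and 4 were at 0.504, 0.264 and 0.502. The numbers were taken as pairing libraries only for the 2 comparisons where every pair was above 0.1. That cut was passed narrowly at 0.113 and missed narrowly at 0.0982. The main fit had no replicate term in any comparison, and the fits with the replicate number as a block are given as alternatives.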

Additional observations from a re-analysis of the deposited data

Results flagged for a closer look

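Of 142 groups of 4 libraries looked at, 23 held a library far from the other 3. A chance share of about 1 in 20 holds for independent groups. It does not apply here, since the same 16 libraries recur for every gene and some members were named for their spread. Most of the 23 libraries set apart were replicate 1. ENSG00000236453.5 was at 5.21 CPM in replicate 1 of MmC+/GDF11- (26.3 to 30.3 CPM in the others) and 5.33 CPM in that of MmC+/GDF11+ (28.5 to 30.4 CPM). LUCAT1 was at 6.90 CPM in replicate 1 of MmC+/GDF11+ (21.8 to 23.4 CPM). FAM87B was at 2.40 and 2.39 CPM (13.8 to 14.9 and 13.1 to 14.8 CPM), and DLGAP1-AS2 at 4.33 and 4.25 CPM (10.8 to 11.8 and 10.6 to 11.0 CPM), in replicate 1 of MmC+/GDF11- and MmC+/GDF11+.

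Also low in replicate 1 were LINC02957 in MmC-/GDF11+ (1.05 CPM, others 2.17 to 2.23 CPM), ENSG00000286426.1 in MmC+/GDF11+ (0.0880 CPM, 1.02 to 1.17 CPM), MIR3142HG in MmC+/GDF11- (1.05 CPM, 2.2 to 2.41 CPM), ENSG00000224945.1 in MmC+/GDF11+ (0.453 CPM, 0.853 to 0.888 CPM) and SCAT8 in MmC+/GDF11- (0.362 CPM, 1.43 to 1.56 CPM). High in replicate 1 were THBS1-IT1 in MmC-/GDF11+ (5.39 CPM, 1.38 to 1.75 CPM), MmC+/GDF11- (22.7 CPM, 13.5 to 14.7 CPM) and MmC+/GDF11+ (23.7 CPM, 12.9 to 14.4 CPM), PINCR in MmC+/GDF11+ (7.84 CPM, 3.74 to 4.24 CPM), ENSG00000237927.1 (0.155 CPM, 0.0803 to 0.0810 CPM) and LINC01397 (0.167 CPM, 0.0803 to 0.0945 CPM) in MmC-/GDF11-, and ENSG00000287255.1 in MmC-/GDF11+ (0.154 CPM, 0.0816 to 0.0930 CPM).

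In other replicates PDE7B-AS1 (0.212 CPM, 0.0773 to 0.0945 CPM) and MIR3142HG (0.0907 CPM, 0.0502 to 0.0540 CPM) were high in MmC-/GDF11- replicate 4, ENSG00000253194.2 was low in MmC-/GDF11- replicate 2 (0.01 CPM, 0.0386 to 0.0405 CPM), and ENSG00000232949.2 was at 0 CPM in MmC-/GDF11+ replicate 2 (0.0117 to 0.0140 CPM). These MmC- levels rest on few counts.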

How the results depend on the processing

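Leaving out 1 library gave 80 to 95 members, median log2 fold changes of 3.03 to 3.36 without and 3.07 to 3.37 with GDF11 (3.39 with GDF11 without replicate 1 of every group), 38 to 40 and 36 to 38 neighbours higher, 25 to 35 and 29 to 38 non-member list lncRNAs called (43 and 48 without replicate 1 of every group, against 34 and 38), and 0 members called for GDF11 or the interaction. With TMM-scaled CPM 82 genes met the rule, from the libraries without GDF11 89 and with GDF11 87, of which 82 were shared with the 84 in both, and 59 had no exon overlap. Requiring at least 10 counts in every library left 21 members and a median of 2.74 with GDF11. Without neighbours that overlap, 16 were higher in each comparison.

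With the replicate number as a block the median was 3.05 without and 3.20 with GDF11, 41 and 40 neighbours were higher, 48 and 50 list lncRNAs were called, and 0 members were called for GDF11. The block changed the call of MIR155HG without GDF11. MAP2K6 with GDF11 did not pass without any 1 of 4 libraries (MmC-/GDF11+ replicate 1 and MmC+/GDF11+ replicates 2 to 4). No result changed direction in the alternatives run. Depth limits members near 0 in MmC- libraries, where a fold change rests on few counts.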
